A study of Mus musculus with 12 samples.

Results

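Afp, Ttr, Trf and Selenop encode proteins that cells secrete into serum. Each gene was represented by 1 probe, matched by its exact symbol, so that 4 of the 9212 named genes on the arrays are described here. They were chosen with their log ratios over all 4 days known, and those log ratios are therefore given as a description, with no test.

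The study followed mouse embryonic stem (ES) cells of the R1 line as they differentiated at random by way of embryoid bodies (EB), the aggregates that ES cells form when they leave the undifferentiated state. ES cells were kept undifferentiated on gelatin in serum-containing medium with leukemia inhibitory factor. Dissociated EB were plated in medium with fetal bovine serum, and RNA was taken after 4, 8, 15 or 21 days. Each of 12 arrays carried ES RNA in one channel and EB RNA of a single day in the other, with 3 arrays for each day. Every group thus shares the R1 genotype, the same ES comparator and serum in the medium, and R1 is a single line. The labels do not tell whether the 3 arrays of one day had separate cultures behind them, so the spread and the p-values measure only differences between these arrays, which may be technical. A plated EB culture is a mixture, and more cells of a type cannot be told apart from more RNA per cell.

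The deposited values are log ratios, read here as log2. Values above 0 are taken to mean more RNA in EB. The sources leave this direction likely but unsettled: the label protocols put Cy5 on EB RNA, whereas the titles name ES first and the dye fields list Cy5 for the ES channel. Undifferentiated-state genes carry negative values under this reading. Zfp42, a marker of ES cells, stood at -2.55, -2.51 and -2.55 on the day 21 arrays. Of 18 measured pluripotency markers 13 were lower at day 21 and 0 higher (limma, adjusted p under 0.05, where 9.93% of all features were lower and 18.7% were called either way), and 8 were lower without day 21 array 1. This reading was first adopted with Zfp42, Nanog, Afp and Ttr in view, so neither these markers nor the 4 serum protein genes count as independent support for it. Should the direction be the reverse, higher and lower trade places throughout.

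The extraembryonic yolk sac is the first organ of the mouse embryo to make serum proteins. Its visceral endoderm, an absorptive epithelium that faces the maternal side, secretes carriers of iron, lipids, thyroid hormone and metals before the liver takes over that task. Parietal endoderm, the other extraembryonic endoderm layer, instead lays down a thick basement membrane. Visceral endoderm commonly forms on the outside of embryoid bodies.

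The arrays fell into 2 sets in features that have no gene in the annotation. Over the 100 such features that varied most within days, the mean log2 ratio lay between -0.30 and -0.002 on 7 arrays (set 1) and between -1.38 and -0.80 on the other 5 (set 2). Set 2 held day 4 array 3, day 8 arrays 2 and 3, day 15 array 3 and day 21 array 3. The sets were found in the values, no label names them, and each day holds arrays of both. Values of the 4 genes are given within each set below.

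Afp, alpha-fetoprotein, is the main serum protein of the fetus and a relative of albumin. At day 4 its log2 ratio was 0.22, -0.48 and 1.17 on arrays 1 to 3, at day 8 it was 0.01, 2.42 and 3.01, at day 15 it was 3.35, 3.46 and 3.62, and at day 21 it was 4.10, 3.34 and 3.35. The day means were 0.30 ± 0.83 (SD, n = 3), 1.81 ± 1.59, 3.48 ± 0.14 and 3.60 ± 0.44. The day 8 arrays thus held a value near 0 beside values close to those of the late days, whereas at day 15 the 3 arrays lay within 0.27 of each other. The arrays of days 4 and 8 overlapped, as did those of days 15 and 21, and all day 15 arrays lay above all day 8 arrays. Afp had the highest value of all 9212 genes on 5 of the 6 arrays of days 15 and 21.

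The stretch before the transcription start is shown, as a description, for those of the 4 genes with a RefSeq promoter entry, Afp and Selenop. Capitals mark the letter matches found in it. The Afp stretch is 120 bases before the start, chr5:90490594-90490713, plus strand, GRCm38.p6.
Afp: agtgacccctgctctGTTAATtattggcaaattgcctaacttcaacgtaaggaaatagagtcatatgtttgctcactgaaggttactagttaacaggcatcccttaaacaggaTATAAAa
Selenop has 3 RefSeq starts. The 30 bases before the third, chr15:3270947-3270976, plus strand, hold all matches found for this gene.
Selenop: ggcgagGTAAACAacagggcTATAAAagtc

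The search covered 250 bases before each start, both strands, for 5 strings. TATAAA stands for the TATA box. GTTAAT is part of the site of HNF1, a factor of liver and endoderm. The forkhead factors of the FOXA family were given the string TGTTTAC, the receptor HNF4 the string CAAAGTCCA and the GATA factors the string AGATAA. In the Afp window the HNF1 string lay at -105 to -100 and the TATA box string at -7 to -2, counted from the RefSeq start. In the Selenop window the FOXA string lay at -24 to -18 on the minus strand and the TATA box string at -10 to -5. The other 2 Selenop windows held none of the 5. No match overlapped another. Over all 32851 windows of this length in the table, 12.4% held the TATA box string, 6.43% that of HNF1, 3.17% that of FOXA, 0.384% that of HNF4 and 9.99% that of GATA. These are matches of letters and not tested sites.

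Ttr, transthyretin, carries thyroid hormone and, bound to retinol-binding protein, vitamin A. Its log2 ratio was 0.38, 0.06 and 1.86 at day 4 and -1.33, 2.54 and 2.98 at day 8. It was 3.33, 3.32 and 3.45 at day 15 and 3.80, 3.17 and 2.80 at day 21. The means were 0.76 ± 0.96 (n = 3), 1.40 ± 2.37, 3.37 ± 0.07 and 3.26 ± 0.50. Day 8 array 1 stood on the opposite side of 0 from the other arrays of that day: there Ttr ranked 9205 of 9212 genes counted from the highest, whereas it ranked 1 on day 8 array 2 and on day 4 array 3. By day 15 the arrays lay within 0.13 of each other. The day 21 arrays overlapped those of day 8, which reached 2.98, while the day 15 arrays did not.

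Trf, transferrin, delivers iron to cells through the transferrin receptor. It stood at -0.18, -0.91 and 0.08 at day 4 and at -0.11, 0.59 and 2.25 at day 8. At day 15 it was 3.45, 3.23 and 2.34 and at day 21 it was 3.36, 2.57 and 1.62. The means were -0.34 ± 0.51 (n = 3), 0.91 ± 1.21, 3.01 ± 0.59 and 2.52 ± 0.87. The lowest day 15 array exceeded the highest day 8 array by 0.09, and the day 21 arrays reached down among those of day 8. On day 15 array 1 Trf had the highest value of all genes.

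Selenop, selenoprotein P, is the plasma protein that carries selenium from the liver to other tissues. Its values were 0.01, 0.12 and 0.57 at day 4, 0.19, 1.22 and 2.08 at day 8, 1.98, 2.34 and 0.98 at day 15 and 2.65, 2.92 and 2.19 at day 21. The means were 0.23 ± 0.30 (n = 3), 1.16 ± 0.95, 1.77 ± 0.70 and 2.59 ± 0.37. Selenop alone of the 4 genes had overlapping arrays at days 8 and 15, and its day 21 arrays lay above all of day 8. Its day means went up at each step, by 0.93, 0.60 and 0.82, whereas those of Ttr and Trf were 0.11 and 0.49 lower at day 21 than at day 15 and that of Afp 0.12 higher. The arrays of days 15 and 21 overlapped for all 4 genes.

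**Figure D1:**
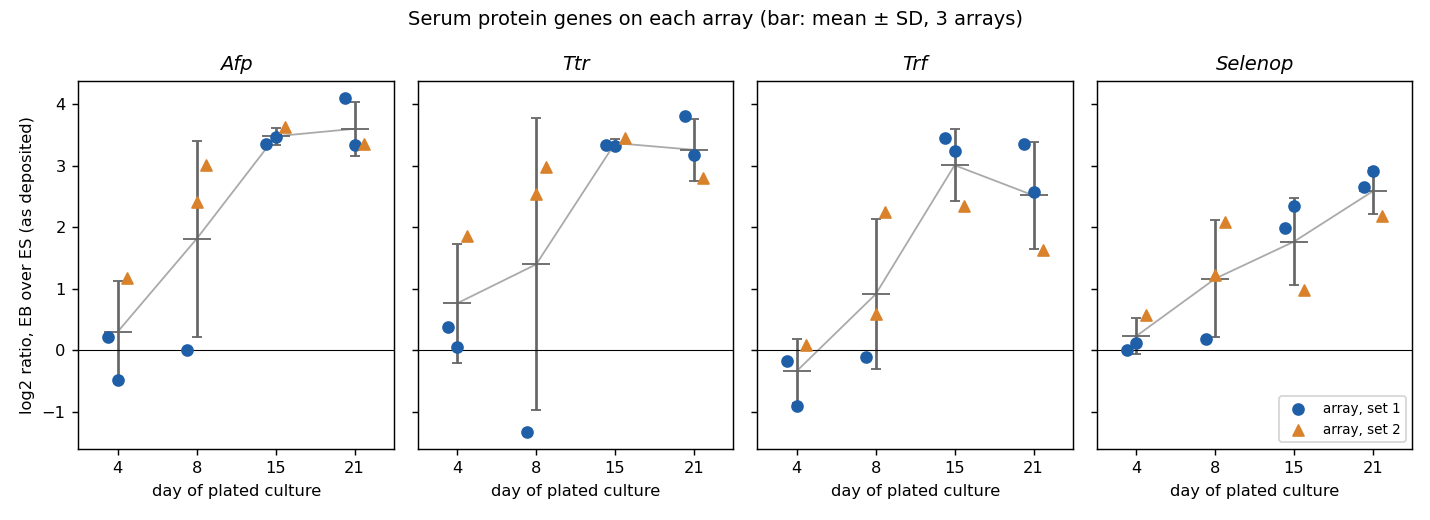
Log2 ratio of EB over ES RNA (vertical axis, as deposited) for Afp, Ttr, Trf and Selenop by day of plated culture (horizontal axis). Each point is an array, circles are set 1 and triangles set 2, and bars give mean ± SD of 3 arrays: at day 8 the single set 1 array lies lowest for each gene, at -1.33 for Ttr against 2.54 and 2.98 on the set 2 arrays.

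All arrays of the later day lay above all of the earlier for 0 of the 4 genes between days 4 and 8 (5.89% of all genes), 3 between days 8 and 15 (8.33%) and 0 between days 15 and 21 (5.13%). They did so for 4 of 4 between days 4 and 15 (9.1%) and between days 4 and 21 (13%), and for Afp and Selenop between days 8 and 21 (9.27%). The 4 genes were chosen on these values, so nothing is read from those counts. One or another of the 4 was the highest of all genes on 8 of 12 arrays, among them all 6 of days 15 and 21.

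The array set moved with the early values. At day 4 the set 2 array lay above the mean of the set 1 arrays by 1.30 for Afp, 1.65 for Ttr, 0.63 for Trf and 0.51 for Selenop. At day 8 the 2 arrays of set 2 averaged 2.72 for Afp, 2.76 for Ttr, 1.42 for Trf and 1.65 for Selenop, against 0.01, -1.33, -0.11 and 0.19 on the single array of set 1. At day 15 Afp and Ttr differed between sets by 0.22 and 0.13, while Trf and Selenop were lower in set 2 by 1.00 and 1.18, and at day 21 all 4 were lower there, by 0.37, 0.68, 1.34 and 0.60.

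Within set 1, the mean of Afp was -0.13 at day 4, 0.01 at day 8, 3.41 at day 15 and 3.72 at day 21. Within set 2 it was 1.17, 2.72, 3.62 and 3.35. Ttr ran from 0.22 through -1.33 to 3.32 and 3.48 in set 1, and from 1.86 through 2.76 to 3.45 and 2.80 in set 2. Trf ran from -0.55 through -0.11 to 3.34 and 2.96 in set 1, and from 0.08 through 1.42 to 2.34 and 1.62 in set 2. Selenop ran from 0.06 through 0.19 to 2.16 and 2.79 in set 1 and from 0.57 through 1.65 to 0.98 and 2.19 in set 2. Each gene was therefore higher at day 21 than at day 4 within both sets, and the day 8 values near the late level came from set 2 arrays alone. With 1 set 1 array at day 8 and 1 set 2 array on each other day, the part of the set in these values was not tested.

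Across the 12 arrays the log2 ratios of Afp and Ttr correlated most closely among the 4 genes (Pearson r = 0.95, n = 12 arrays, given as a description). Afp with Trf gave 0.93 and Selenop with Ttr the lowest, 0.82. The arrays share the ES comparator, the days and the 2 sets.

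By the same measure, among 314 other genes whose values had an SD of at least 0.5 over the arrays, those most like Afp were Apom (r = 0.98), Gpx3 (0.97), Gpc3 (0.96), Gstm1 (0.96) and Apoa1 (0.96). Apom and Apoa1 are lipoprotein components, Gpx3 is the plasma glutathione peroxidase, Gpc3 a cell surface proteoglycan and Gstm1 a glutathione transferase. Those most like Ttr were Car4 (0.94), a membrane carbonic anhydrase, then Apoa1 (0.93), Apom (0.93), Gstm1 (0.92) and Gpx3 (0.89). Those most like Trf were Rnf103 (0.96), Igf2r (0.95), Id3 (0.94), Gpx3 (0.94) and Apoa2 (0.94). Those most like Selenop were F2, prothrombin (0.97), Fga, a fibrinogen chain (0.95), Sdcbp (0.94), Fcgr3, an immunoglobulin receptor of macrophages (0.94), and Creg1 (0.94).

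Afp and Ttr therefore shared 4 of their 5 nearest genes, and the nearest genes of Selenop contained none of those. By Spearman correlation Apom alone of those 4 stayed among the 5 nearest of Afp and of Ttr, so the sharing of 4 holds for Pearson correlation. Apom stood at -0.01, 0.10 and 0.77 on the day 4 arrays and at 0.25, 1.68 and 1.76 at day 8, with the low array 1 of Afp and Ttr. Trf and Selenop were also lowest on day 8 array 1, at -0.11 and 0.19. F2 stood at 1.30, 1.59 and 0.27 at day 15 and at 1.92, 2.15 and 1.18 at day 21, with the low array 3 of Selenop.

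**Figure D2:**
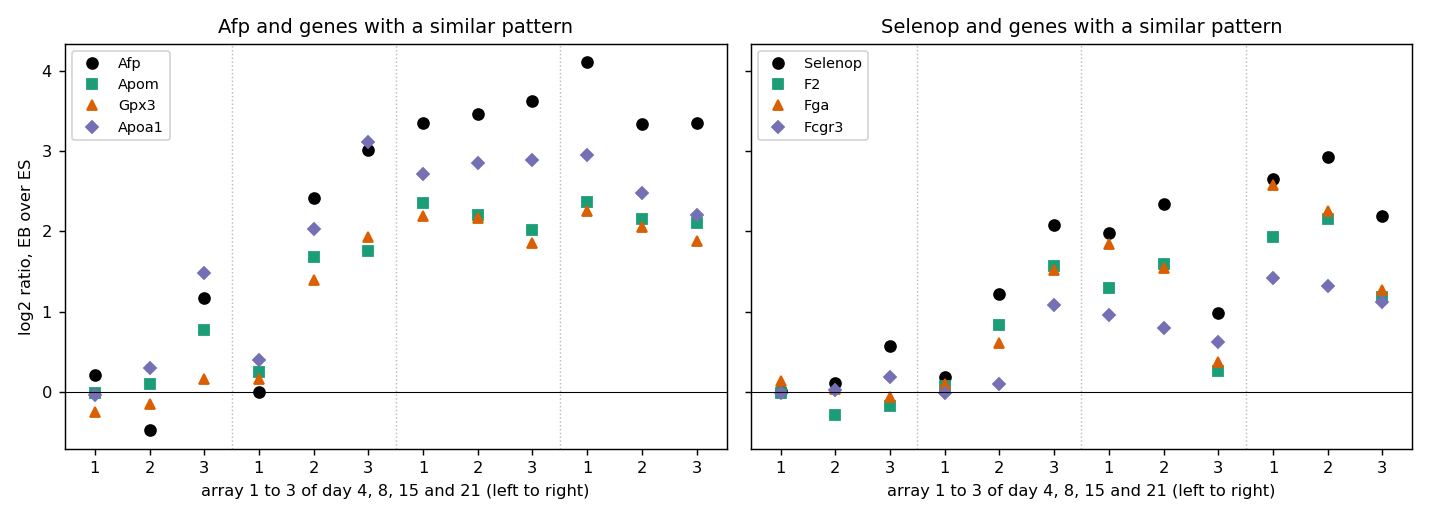
Log2 ratio of EB over ES RNA (vertical axis) on the 3 arrays of days 4, 8, 15 and 21 (horizontal axis, left to right, dotted lines between days) for Afp with Apom, Gpx3 and Apoa1, and for Selenop with F2, Fga and Fcgr3. Each point is an array: day 8 array 1 is low for Afp (0.01) and Apom (0.25) and also for Selenop (0.19). Day 15 array 3 is low for Selenop (0.98) and F2 (0.27).

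The 4 genes lie on 4 different chromosomes. Their nearest measured protein-coding neighbours in RefSeq's gene order were chosen after the values were seen. Of these, Alb and 1300017J02Rik were called higher at day 21 and the others were not called. Afp lies between Alb (albumin) and Afm (afamin), both of its own family. Alb stood at 0.10, -0.03 and -0.13 at day 15, when Afp was above 3 on each array, and at 1.44, 1.18 and 0.12 at day 21 (0.92 ± 0.70, limma adjusted p = 0.00385), with its 2 probes at 0.28 and 1.55 and an adjusted p of 0.0523 without day 21 array 1. Afm stood at 0.10 ± 0.37 at day 21 (adjusted p = 0.646). The neighbours of Ttr, Dsg2 and B4galt6, stood at -0.25 ± 0.32 and -0.16 ± 0.25 at day 21 (adjusted p = 0.176 and 0.382).

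Beside Trf, Srprb stood at 0.15 ± 0.13 at day 21 (adjusted p = 0.38), whereas 1300017J02Rik on the other side, named Ica in RefSeq's synonyms and itself of the transferrin family, was higher, at 1.15, 1.01 and 0.13 on the day 15 arrays and 1.54, 1.23 and 0.42 at day 21 (1.06 ± 0.58, adjusted p = 0.00342, and 0.0504 without day 21 array 1). Like Trf, it was lowest on array 3 of both days. Ghr, the growth hormone receptor, was the only measured neighbour found for Selenop, next after Ccdc152, which had no value. It stood at 0.43 ± 0.37 at day 21 (adjusted p = 0.0526).

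Other genes of serum proteins, of the cells that make them and of the pathways the 4 proteins serve were read from 11 lists, none of which holds any of the 4. They were tested with limma over all 10689 features. At day 4 no feature was called by limma (0% of features), although 1081 had an unadjusted p under 0.05, so 0 list genes were called. Percentages of all features called give the background for each count below. The lists were chosen with earlier results of these data known, so the counts are a description and not a test of the lists.

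Other serum protein genes were the list with the highest median at day 21. Of 32 measured members 22 were higher at day 21 and 1 lower (8.78% and 9.93% of all features), with a list median of 0.89 against 0.003 over all features. At day 15, 18 were higher and 0 lower (5.66% and 4.9% of all features, 10.6% in all), and at day 8, 3 were higher and 0 lower (1.23% and 1.06% of all features, 2.28% in all), namely Apoa1, Apom and Clu (clusterin, a secreted chaperone). None of those 3 day 8 calls held without day 8 array 2 (adjusted p = 0.127, 0.125 and 0.143) or array 3 (0.258, 0.222 and 0.274). The member lower at day 21 was Fetub, a protease inhibitor of the fetuin family (-0.54 ± 0.45, adjusted p = 0.0415, and 0.324 and 0.144 without day 21 array 1 or array 2). Between day 4 and day 21 itself, 13 of 32 were higher and 0 lower at day 21 (2.62% and 3.22% of all features, 5.84% in all). The count at day 15 was 6 without day 15 array 1 and 8 without array 2, and at day 21 it was 14 without day 21 array 1. The count between days was 6 without day 21 array 1, 5 without array 2 and 7 without day 4 array 1.

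Apoa1, the chief apolipoprotein of high-density lipoprotein, was -0.03, 0.30 and 1.48 at day 4 and 2.96, 2.48 and 2.20 at day 21 (2.55 ± 0.38, adjusted p = 9.14e-04). Apoc2, the activator of lipoprotein lipase, was 2.46 ± 0.56 (adjusted p = 0.00458, but 2.19 and 0.0541 without day 21 array 1). Apom was 2.21 ± 0.14 (adjusted p = 8.11e-05). Igfbp1, which binds insulin-like growth factors, came later: it was 0.01, 0.01 and 0.85 at day 8, 1.81, 1.47 and 0.26 at day 15 and 2.43, 2.74 and 1.90 at day 21 (2.36 ± 0.42, adjusted p = 7.80e-05).

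By array the median of the serum protein list was 0.78, 0.75 and 0.25 at day 15 and 1.33, 1.04 and 0.34 at day 21, so that the set 2 array of each late day was lowest, as for Trf and Selenop. With the array set as a term in the fit, 18 members were higher at day 15 and 21 at day 21.

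Visceral endoderm markers were called early and late against ES. Between days 4 and 21 themselves, 4 of 26 were higher and 0 lower at day 21 (2.62% and 3.22% of all features). Of 26 measured members 8 were higher at day 8 (0 lower), 12 higher and 2 lower at day 15, and 15 higher and 2 lower at day 21. Of all features 1.23% were higher at day 8, 5.66% higher and 4.9% lower at day 15, and 8.78% higher and 9.93% lower at day 21. The 2 lower genes were Fabp3, a fatty acid carrier of cells (-0.75 ± 0.03 at day 21, adjusted p = 0.00162), and Apobec1, which edits apolipoprotein B message (-0.70 ± 0.45, adjusted p = 0.00784, and 0.0893 without array 2). S100g, a calcium-binding protein, stood at 1.20, 2.17 and 3.51 at day 8, 2.95 ± 0.27 at day 15 and 2.65 ± 0.52 at day 21 (adjusted p = 0.00755, 2.52e-04 and 1.71e-04). Its day 8 call was lost without day 8 array 2 (adjusted p = 0.0571). Spink1, a trypsin inhibitor, was 2.60 ± 0.18 at day 21 (adjusted p = 1.88e-04). Tinagl1, a matrix protein, was 1.85 ± 0.29 (adjusted p = 5.22e-05) and Cited1, a transcriptional coactivator, was 1.50 ± 0.29 (adjusted p = 0.00108).

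The endocytic receptor Cubn was called at day 8 (1.04 ± 0.32, adjusted p = 0.0478), and stood at 0.70 ± 0.17 at day 21 (adjusted p = 0.0662). It was picked for its role in uptake after its values were seen, and its call was lost without any of the 3 day 8 arrays (adjusted p = 0.0737, 0.193 and 0.248). The visceral endoderm count at day 8 was 1 without day 8 array 2 and 2 without array 3, and 5 without any one of 6 arrays of other days, namely day 4 array 1, day 15 arrays 1 and 2 and all 3 of day 21. At day 15 it was 6 without array 1 and 5 without array 2, and at day 21 it was 6 and 5. By array the list median was 0.38 on day 4 array 3 against -0.085 on array 2 and a value near 0 on array 1. Afp and Ttr were also highest on array 3 of that day.

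Parietal endoderm markers, of which 20 were measured, had 10 members higher at day 8 (1.23% of all features), 10 at day 15 (5.66%) and 13 at day 21 (8.78%). The 1 member lower at day 21 (9.93% of all features) was the coagulation cofactor Thbd (-0.48 ± 0.48, adjusted p = 0.0313, and 0.0744 and 0.27 without array 1 or array 2). At day 21 Krt8 stood at 1.67 ± 0.12 (adjusted p = 4.26e-05), Krt18 at 1.65 ± 0.32, Sparc at 1.17 ± 0.19 and Krt19 at 1.16 ± 0.06. Krt8, Krt18 and Krt19 are keratins of simple epithelia in general and Sparc a matrix protein. The list's median on day 8 array 1 was 0.40, where Afp was 0.01 and the visceral endoderm median 0.16. The day 8 count was 0 without day 8 array 2 or array 3, 5 without array 1 and 6 without day 21 array 2, and the day 15 count was 3 without array 1 or array 2. In the contrast of days 21 and 4, 9 of 20 were higher and 0 lower at day 21 (2.62% and 3.22% of all features).

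Few transcription factors of endoderm and of Afp control were called against ES, and 0 of 23 between days 21 and 4 (5.84% of all features). Of 23 measured members 3 were higher at day 8 (1.23% of all features), 3 at day 15 (5.66%) and 2 at day 21 (8.78%), where 2 were lower (9.93%). The day 21 counts were near the shares over all features, and nothing is read from them about the list. The 3 of day 8 were Sox17 (0.83 ± 0.23, adjusted p = 0.00804), Gata6 (0.46 ± 0.07, adjusted p = 0.0368) and Gata4 (0.36 ± 0.17, adjusted p = 0.0411), which act early in endoderm formation. Each of these calls was lost without day 8 array 2 (adjusted p = 0.0647, 0.124 and 0.181) or array 3 (0.104, 0.194 and 0.28). The 3 of day 15 were Sox17, Klf6 (0.49 ± 0.14) and Zfhx3 (0.87 ± 0.50), the last a repressor of Afp, and each call was lost without day 15 array 1 (adjusted p = 0.161, 0.0901 and 0.0935) or array 2 (0.305, 0.0518 and 0.102). Hnf4a, a factor that drives many liver and visceral endoderm genes, was -0.04 ± 0.18 at day 21 (adjusted p = 0.774) and Foxa2 was 0.11 ± 0.18 (adjusted p = 0.487). Gata4, Gata6, Klf6, Zfhx3, Hnf4a and Foxa2 were picked for their roles after their values were seen.

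At day 21 Sox17 was 0.57 ± 0.25 (adjusted p = 0.00534) and the nuclear receptor Nr2f1 was 0.85 ± 0.72 (adjusted p = 0.0213). The nuclear receptor Nr5a2 was -0.44 ± 0.06 (adjusted p = 0.04) and the homeobox factor Hhex -0.28 ± 0.19 (adjusted p = 0.0478). None of these 4 calls held without day 21 array 1, where the adjusted p was 0.067, 0.21, 0.164 and 0.325. The calls of Nr2f1, Nr5a2 and Hhex were also lost without array 2 (0.0634, 0.164 and 0.0611), and those of Nr5a2 and Hhex without array 3 (0.083 and 0.0948).

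Enzymes of mature hepatocytes, the cells that make many serum proteins after birth, though no longer Afp, were mostly near 0, with a list median of -0.001 at day 21. Of 21 measured members 3 were higher at day 21 and 0 lower (8.78% and 9.93% of all features). Between days 4 and 21 themselves, 0 were called (5.84% of all features). Tdo2, which breaks down tryptophan, stood at 2.39, 2.48 and 0.03 at day 15 and 1.50, 1.76 and 0.46 at day 21 (1.24 ± 0.69, adjusted p = 0.0349). Cdo1 was 0.51 ± 0.51 (adjusted p = 0.0446) and Adh1 was 0.33 ± 0.28 (adjusted p = 0.0446). Without day 21 array 1 the 3 had adjusted p = 0.18, 0.257 and 0.339, and without array 2 they had 0.214, 0.292 and 0.148.

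**Figure D3:**
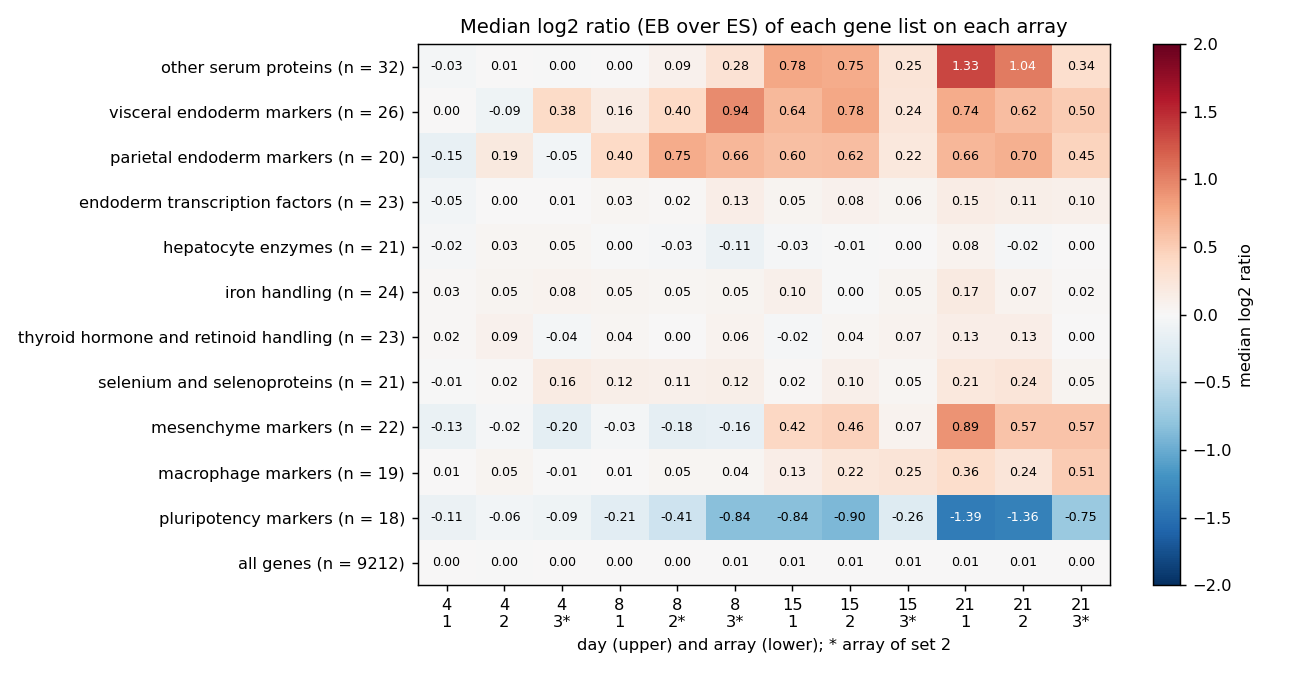
Median log2 ratio of EB over ES RNA (colour and printed value) of each gene list (rows, with the number of measured genes) on each array (columns, day above and array below, set 2 marked by an asterisk). The serum protein list reaches 1.33 and 1.04 on day 21 arrays 1 and 2 and 0.34 on array 3, while hepatocyte enzymes and endoderm transcription factors stay between -0.11 and 0.15 on all 12 arrays.

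Genes of iron handling, the pathway that Trf serves, were called in both directions at day 21 against ES. The contrast of days 21 and 4 called 0 of 24 (5.84% of all features). Of 24 measured members 4 were higher and 3 lower at day 21 (8.78% and 9.93% of all features), and at day 15 Tfrc was the 1 member called. Tfrc, the receptor that takes up iron-loaded transferrin, was lower at day 15, at -0.49, -0.56 and -0.47 (-0.51 ± 0.05, adjusted p = 0.00881), and at day 21, at -0.49, -0.43 and -0.24 (-0.39 ± 0.13, adjusted p = 0.0216). Receptor and ligand thus stood on opposite sides of 0 on all 6 late arrays. The 2 probes of Tfrc were at -0.38 and -0.40 at day 21. The day 21 call was lost without array 1 (adjusted p = 0.144) or array 2 (0.117), and the day 15 call without array 1 (0.0639) or array 2 (0.088).

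Ireb2, which represses or stabilises messages of iron genes when iron is scarce, was -0.36 ± 0.21 at day 21 (adjusted p = 0.0126, and 0.129 without array 2). Fth1, the ferritin heavy chain that stores iron, was 0.76 ± 0.24 (adjusted p = 0.00766), and Heph, a ferroxidase of iron export, was 0.76 ± 0.36 (adjusted p = 0.0319). Without day 21 array 1 these had adjusted p = 0.0536 and 0.185, Fth1 had 0.051 without array 3 and Heph 0.174 without array 2. Of the iron list, the transferrin paralogs Ltf (lactoferrin, 0.11 ± 0.36, adjusted p = 0.551) and Meltf (melanotransferrin, -0.06 ± 0.16, adjusted p = 0.671), were not called and were chosen after their values were seen. The other called members were Hmox1, which degrades heme (0.35 ± 0.07), Ncoa4, the receptor for ferritin turnover (0.32 ± 0.19), and Alas1, a heme synthesis enzyme (-0.31 ± 0.13), none of which held without day 21 array 2 (adjusted p = 0.0543, 0.103 and 0.105). The count of higher members was 1 without day 21 array 1 or array 2.

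Of 23 measured genes of thyroid hormone and retinoid handling, the cargo of Ttr, 5 were higher and 1 lower at day 21 (8.78% and 9.93% of all features). In the contrast of days 21 and 4, 1 was higher and 0 lower at day 21 (2.62% and 3.22% of all features). Cyp26a1, which breaks down retinoic acid, was highest at day 8, at 1.42, 1.76 and 1.74 (1.64 ± 0.19, adjusted p = 0.00349), and 0.75 ± 0.19 at day 21 (adjusted p = 0.0222). Unlike Ttr, it was high on day 8 array 1, and its day 8 call was lost without day 8 array 3 (adjusted p = 0.0722). Rbp2, a cellular retinol-binding protein, was 1.06, 0.85 and 0.31 at day 21 (adjusted p = 0.00167), Crabp2, which binds retinoic acid in cells, was 0.53 ± 0.32 (adjusted p = 0.0105) and Rdh11, a retinal reductase, -0.38 ± 0.05 (adjusted p = 0.0101). The day 21 calls of Cyp26a1 and Crabp2 were lost without array 1 (adjusted p = 0.0936 and 0.11) or array 2 (0.0735 and 0.0899), that of Cyp26a1 without array 3 (0.108) and that of Rdh11 without array 2 (0.0698). Crym, which binds thyroid hormone in the cytosol (0.33 ± 0.20), and the retinoic acid receptor Rarb (0.27 ± 0.13) were the other 2 higher members, with adjusted p = 0.127 and 0.2 without array 2. The count of higher members was 1 without array 1 or array 2. The thyroid hormone receptor Thrb, chosen after its values were seen, was 0.09 ± 0.11 (adjusted p = 0.475).

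Of 21 measured genes of selenium use, 4 were higher and 3 lower at day 21 (8.78% and 9.93% of all features). In the contrast of days 21 and 4, 2 were higher and 1 lower at day 21 (2.62% and 3.22% of all features). Gpx3, the other selenoprotein of plasma, stood at -0.24, -0.15 and 0.16 at day 4, 0.16, 1.40 and 1.93 at day 8, 2.19, 2.17 and 1.85 at day 15 and 2.25, 2.06 and 1.88 at day 21 (2.06 ± 0.19, adjusted p = 1.31e-04). Selenow, a small muscle-rich selenoprotein, was 0.82 ± 0.22 (adjusted p = 0.0053), and Selenok, a selenoprotein of the endoplasmic reticulum, 0.67 ± 0.16 (adjusted p = 4.70e-04). Secisbp2, which binds the RNA element that directs selenocysteine insertion, was -0.55 ± 0.29 (adjusted p = 0.04), a call lost without day 21 array 1 (0.127), array 2 (0.0719) or array 3 (0.208). Selenos, of the endoplasmic reticulum, was also higher (0.37 ± 0.07, adjusted p = 0.0165, and 0.108 and 0.0901 without array 1 or array 2). The glutathione peroxidases Gpx2 (-0.51 ± 0.16, adjusted p = 0.0014) and Gpx4 (-0.46 ± 0.09, adjusted p = 0.0427) were lower, on the opposite side of 0 from Gpx3. The Gpx4 call was lost without array 1 (0.148), array 2 (0.121) or array 3 (0.149). The day 21 calls of Gpx3, Selenow and Selenok held without each of the 12 arrays in turn. Lrp2, a kidney and endoderm receptor for selenoprotein P that is also on the visceral endoderm list, was 0.98 ± 0.53 at day 8 (adjusted p = 0.0493) and 0.52 ± 0.30 at day 21 (adjusted p = 0.139). Its day 8 call was lost without day 8 array 2 (0.183) or array 3 (0.344). Selenos, Gpx2, Gpx4 and Lrp2 were chosen after their values were seen, as were Fetub, Clu, Fabp3, Apobec1, Thbd, Hmox1, Ncoa4, Alas1, Crym, Rarb and Thy1.

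**Figure D4:**
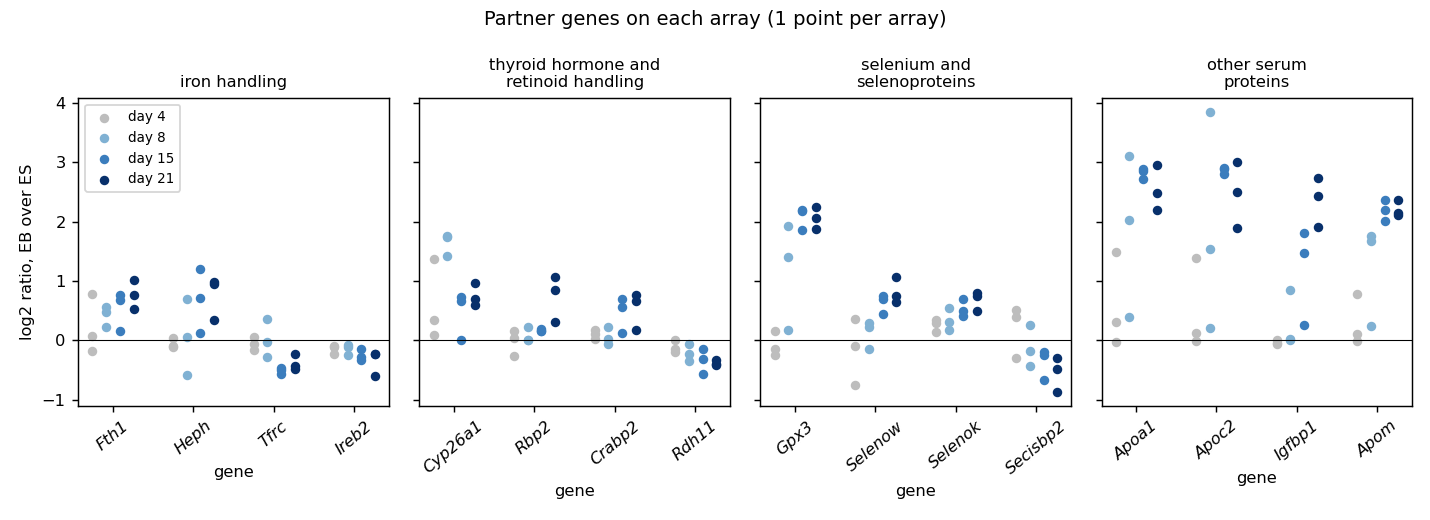
Log2 ratio of EB over ES RNA (vertical axis) of the 4 genes with the largest day 21 values called in each of 4 lists (horizontal axis), where every point is an array and darker points are later days. Among iron genes Tfrc lies between -0.56 and -0.24 on the arrays of days 15 and 21, and among selenium genes Gpx3 lies between 1.85 and 2.25.

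Markers of other cells that can make transferrin or selenoprotein P also moved late. Of 22 mesenchyme markers 13 were higher and 1 lower at day 21 (8.78% and 9.93% of all features). The lower was Thy1 (-0.59 ± 0.45, adjusted p = 0.0462, and 0.346 and 0.114 without array 1 or array 2). Postn stood at 2.80 ± 0.21 (adjusted p = 7.53e-08), and the fibrillar collagen chains Col1a2 at 1.94 ± 0.38, Col5a2 at 1.84 ± 0.24 and Col5a1 at 1.81 ± 0.18. The median of that list was -0.03, -0.18 and -0.16 on the day 8 arrays and 0.42, 0.46 and 0.07 at day 15. Of 19 macrophage markers 10 were higher at day 21 and 0 lower (8.78% and 9.93% of all features), and 6 were higher without array 3. Ctss stood at 1.36, 0.45 and 2.34, Fcgr3 at 1.42, 1.32 and 1.12 (1.28 ± 0.15, adjusted p = 2.82e-04), Mrc1 at 0.91 ± 0.37 and C1qb at 0.84 ± 0.21. The macrophage median was 0.13, 0.22 and 0.25 at day 15 and 0.36, 0.24 and 0.51 at day 21, highest on array 3 of each day. At day 21 Ctss was also highest on array 3, whereas Fcgr3 was lowest there. Between days 4 and 21 themselves, 11 of 22 mesenchyme and 5 of 19 macrophage markers were higher and 0 lower at day 21 (2.62% and 3.22% of all features). The part of these cell types in the values of the 4 genes was not tested.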

How the data were processed

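RNA was labelled by in vitro transcription with Cy3 or Cy5, per the labels' protocols. The authors deposited normalized log ratios, named log2 here by convention since the labels do not give the base. Scanner, background correction, normalization method and filters are not given in the sources used here. Of 11520 features, 10043 had 1 gene symbol in GEO's platform annotation, 29 several and 1448 none. Probes of a gene were averaged, giving 9212 genes. With the other features kept singly, 10689 were tested. Column medians lay between -0.0018 and 0.0106, and the few arrays limit the precision.

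A mean per day was fitted to all 12 arrays with limma 3.58.1 in R 4.3.3 (8 residual and 4.35 prior degrees of freedom), tested two-sided against 0 and between days 21 and 4. Tests against 0 leave out the spread of the ES control. The titles name ES first on all 12 arrays and record no dye swap. A dye effect on a gene therefore cannot be told apart from a difference between EB and ES in these tests. P-values were adjusted by Benjamini-Hochberg over all features with a threshold of 0.05, and the fit was tested on simulated data. The simulated noise was independent between arrays and held no array sets, so that check does not cover the array sets seen here. The 4 genes and the lists were chosen with earlier results of these data known. Of 294 listed genes 244 were measured. Dio1, Dio2, Dio3, Gata6, Lrp2 and Rbp4 are each on 2 lists. Named were, per list, up to 4 called genes with the largest absolute day 21 mean, the 5 genes most like each of the 4, and 4 sign-check genes (Zfp42, Nanog, Pou5f1 and Sox2). Alternatives were other normalizations, array weights, fewer arrays, a replicate block, an array set term and, added after seeing the data, set 1 alone.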

Additional observations from a re-analysis of the deposited data

Results flagged for a closer look

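The difference between days 21 and 4 was itself tested with limma, as a contrast in the fit of all arrays, and named genes that differed (adjusted p under 0.05) are given here as the log2 ratio at day 21 minus that at day 4. Apoa1, Apoc2, Cited1, Tfrc and Fth1 were among the named genes that this contrast did not call. Among serum protein genes, the difference was Apoa2 1.46, Apom 1.92, F2 1.91, Fga 1.99 and Igfbp1 2.39. Among the visceral endoderm markers, the difference was S100g 2.55, Spink1 1.92 and Tinagl1 1.93. Among the parietal endoderm markers, the difference was Krt8 1.48, Krt18 1.59, Krt19 1.58 and Sparc 1.27. Among the selenium and retinoid genes, the difference was Gpx3 2.14, Selenow 0.98 and Rbp2 0.77. Among the mesenchyme markers, the difference was Postn 2.83, Col1a2 2.13, Col5a1 1.91 and Col5a2 2.3. Among the macrophage markers, the difference was C1qb 0.82, Ctss 1.48, Fcgr3 1.22 and Mrc1 0.98. Among the genes named for a pattern like that of Afp, Trf or Selenop, the difference was Creg1 1.31, Gpc3 1.57, Gstm1 1.55, Igf2r 1.06, Rnf103 1.19 and Sdcbp 1.02. These genes, and Apoa2, F2 and Fga above, were named only for their correlation with the serum protein genes over the same arrays. Their calls are therefore not independent of that choice, and nothing is read from them. Among the pluripotency markers, the difference was Dppa5a -1.95, Fbxo15 -1.78, Nanog -1.78, Nr0b1 -2.33, Pou5f1 -0.82, Sox2 -0.9 and Zfp42 -2.12. The calls of Apoa2, C1qb, Ctss, F2, Fcgr3, Fga, Igf2r, Krt18, Mrc1, Pou5f1, Rbp2, Rnf103, Sdcbp, Selenow, Sox2, Sparc and Spink1 were lost when 1 array was left out, and for each of them day 21 array 1 or array 2 was such an array. Features without a gene in the annotation, on which the 2 array sets are defined and which are among the features tested, had a mean log2 ratio of -1.11 on the 5 arrays of set 2, over the 100 such features that varied most within days, against -0.16 on the 7 arrays of set 1. Those features were picked for their variation, so that the separation is a description. With 3 arrays a day, no array was tested for standing apart from its group.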

How the results depend on the processing

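At day 4 the number of called features was 0, but 137 after quantile normalization, 51 with arrays scaled to one median absolute value, 94 with array weights and 87 once the fit held a term for the array set (0 to 2 leaving out 1 array). At day 8 it was 244, and 518, 580, 999 and 454 under the same settings, 10 with the set 1 arrays alone, 1 with that day's arrays alone and 6 to 380 leaving out 1 array. At day 15 it was 1129, and 3251 with array weights, 1742 with set 1 alone, 259 with that day's arrays alone and 235 to 1554 leaving out 1 array. At day 21 it was 1999, and 1068 after quantile normalization, 969 after scaling and 753 to 2221 leaving out 1 array. Between days 21 and 4 it was 624, and 374, 308, 1343 with array weights, 395 with those days alone and 223 to 773 leaving out 1 array. The causes were not tested. At day 15 the calls split 605 higher to 524 lower, but 126 to 181 without array 1.

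With the replicate number as a block the counts were 0, 350, 1243, 2036 and 614 for the same 5 comparisons. The deviations of same-numbered arrays from their day means correlated over 0.1 in 8 of 18 pairs (-0.14 to 0.389). Between days 15 and 21 all 3 pairs did (0.237, 0.151 and 0.389), whereas between days 8 and 21 none did, so the numbers were not taken to pair the arrays over the series.

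The early means of the 4 genes moved with single arrays. At day 4, leaving out array 3 took Afp from 0.30 to -0.13, Ttr from 0.76 to 0.22, Trf from -0.34 to -0.55 and Selenop from 0.23 to 0.06. Without array 2 Afp was 0.69 and Trf -0.05. At day 8 Ttr, 1.40 with all arrays, was 2.76, 0.83 and 0.60 without array 1, 2 or 3. Trf, at 0.91, was 1.42 without array 1 and 0.24 without array 3. Without array 3 Afp was 1.21 and Selenop 0.71. Quantile normalization gave 0.63 for Afp, 1.30 for Ttr and 0.40 for Selenop at day 4, and scaling 0.48 for Afp. The mean of Afp was 3.10 at day 15 after quantile normalization and 3.31 after scaling, and 2.91 at day 21 after scaling. Ttr was 2.86 and 3.21 at day 15, and 2.62 at day 21 after scaling. Selenop at day 21 was 2.12 and 2.07. With the sign of all values turned, Afp was -1.81, -3.48 and -3.60 at days 8, 15 and 21, Ttr -0.76, -1.40, -3.37 and -3.26 at the 4 days, Trf 0.34, -0.91, -3.01 and -2.52, and Selenop -0.23, -1.16, -1.77 and -2.59. By Spearman correlation 1 of the 5 genes most like Afp stayed among its 5, as did 1 for Ttr, 2 for Trf and 2 for Selenop. Of 153 calls of 57 named genes, 82 held without each of the 12 arrays, 150 in the fit with that term, 131 after quantile normalization and 125 after scaling, and 0 reversed in these settings. Each of the 4 genes has 1 probe, so no other choice of probe could be tried. Signal over background was not analysed here.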
